A study of Ovis aries with 24 samples.

Results

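HSPA5, XBP1, PDIA4, HSP90AA1 and CRYAB encode protein-folding factors of the cell and a transcription factor that controls some of them. Every array probe whose gene name or description named 1 of these 5 genes was taken, which gave 7 probes among the 15008 on the array, where 726 genes carried a symbol. The RNA came from sheep, from the ductus arteriosus and from the ascending aorta, and was hybridised in 1 colour to Agilent arrays, 1 sample per array. Each vessel was sampled in preterm fetuses at 97 days of gestation, in near-term fetuses at 136 days and in newborn lambs 12 hours after birth, with 4 arrays from 4 animals in each of the 6 groups, 24 arrays in all. The sample titles give 100 and 140 days for the fetal ages. No genotype, strain or drug is named for any group, and the labels do not say whether the ductus and the aorta that carry the same number came from 1 animal. The comparisons ask how each gene's level changed before birth, from preterm to near term, and after birth, from near term to newborn, in a vessel that closes and in its neighbour that does not.

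Proteins bound for secretion or for membranes fold in the endoplasmic reticulum (ER). HSPA5, also called BiP or GRP78, is the main HSP70 chaperone there and holds the stress sensors inactive. When unfolded protein accumulates, the sensor IRE1 splices the XBP1 messenger, and the factor made from it raises transcription of ER chaperones and of the secretory machinery. PDIA4 is an ER disulfide isomerase. HSP90AA1 is the stress-inducible HSP90 of the cytosol, and CRYAB (αB-crystallin) is a small heat shock protein that keeps damaged proteins from aggregating and that is abundant in lens and in striated muscle. The ductus arteriosus joins the pulmonary artery to the aorta in the fetus and closes after birth when its smooth muscle contracts.

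HSPA5 had a pair of probes, named A_70_P016527 and A_70_P016526 on the array and designed on 1 sequence. XBP1 also had a pair, A_70_P001446 and A_70_P001447, which the array calls LOC100037692. PDIA4 had A_70_P059651, which the array calls LOC100037677, HSP90AA1 had A_70_P014626 and CRYAB had A_70_P039526. Each probe had 1 spot per array, and all 7 were well above background on all 24 arrays and saturated on 0. The array does not separate spliced from unspliced XBP1 messenger. Genome positions and sequences were not used here. Where a gene had 2 probes, the one with the higher mean signal stands for it and the other is given beside it. A level below is the log2 processed signal minus the log2 of the 75th percentile of its array, so that 0 marks that percentile, and levels of different probes are not set against each other.

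Each stage was hybridised on 1 of 3 slides, and all ductus arrays lay in 1 column of a slide and all aorta arrays in the other, which means that a stage cannot be told apart from its slide, nor a vessel from its column. The detection limit that the scanner software derived from spiked-in transcripts was above 1.5 on 12 of the 24 arrays, among them 3 of 4 preterm aorta, 3 of 4 near-term aorta and 0 of 4 newborn ductus arrays. Calponin (CNN1), the 1 smooth muscle marker of 8 listed that was measured, was well above background on all 24 arrays. In tissue RNA, more cells of a type and more RNA per cell cannot be told apart. Over the 13997 probes tested, the median log2 difference was 0.21 in the ductus and 0.12 in the aorta from preterm to near term, and −0.32 and −0.23 from near term to newborn. Centring each array on its median instead moved these medians by −0.26, −0.18, 0.31 and 0.23. A gene's difference is therefore also given relative to the median of all probes, which describes it on another scale and does not correct it. A call means an adjusted p under 0.05 in limma, with the Benjamini-Hochberg adjustment over all probes tested.

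Before birth 0 of the 5 genes were called in the ductus and 0 of 5 in the aorta, where 0.3% and 0.486% of all probes were called. After birth CRYAB rose in both vessels, and HSPA5 and XBP1 rose in the aorta. That made 1 of 5 genes higher in the ductus and 3 of 5 in the aorta, where 4.16% and 3.01% of all probes were called higher, and 11% and 6.37% in either direction. In the ductus 37.8% of all calls after birth were higher, and this share was 59.3% with median centring, 57.0% with quantile normalisation and 13% with normexp background correction. PDIA4 and HSP90AA1 were not called in either vessel. Both intervals share the near-term arrays, so a low or a high near-term array moves the change before birth and the change after birth in opposite directions.

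**Figure D1:**
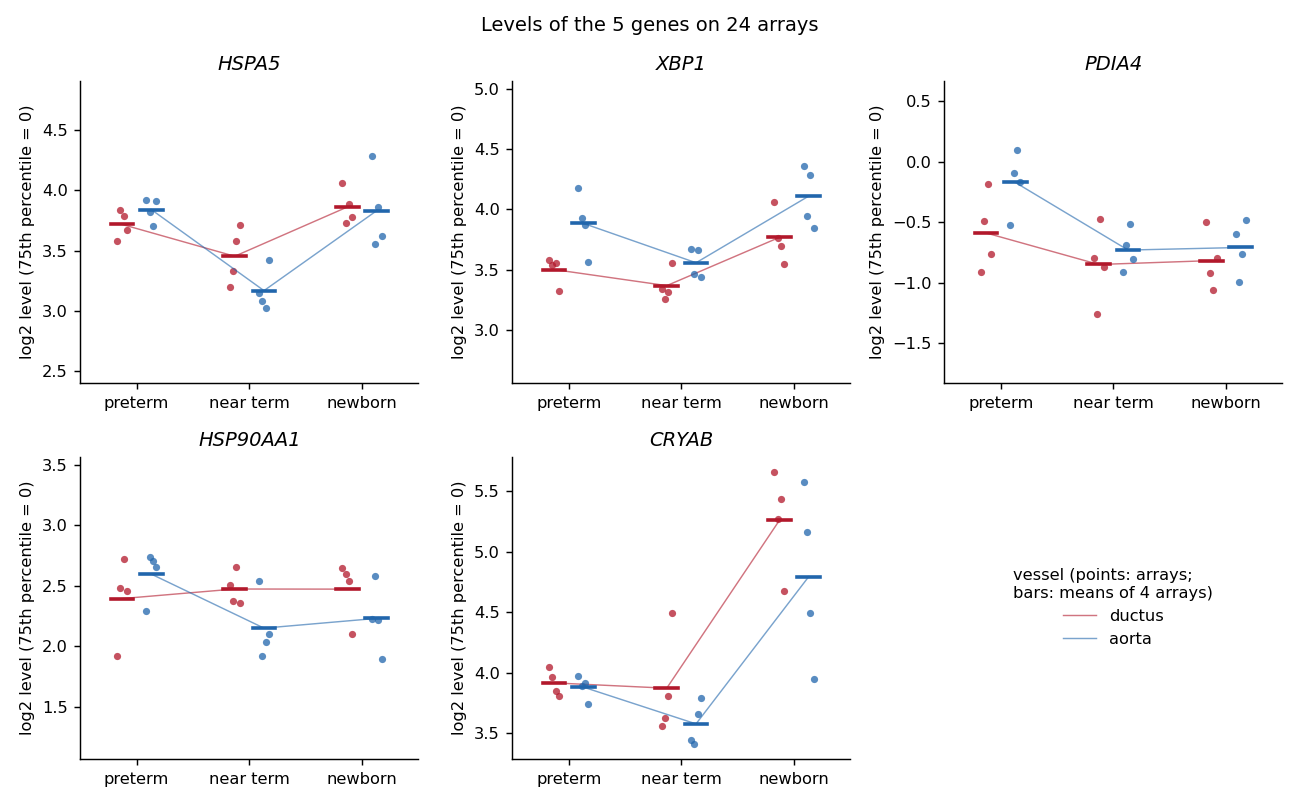
Level of each gene (log2, relative to the 75th percentile of the array) at 3 stages in the ductus (red) and the aorta (blue). Points are arrays, 4 per group, short bars are group means, and every panel spans the same number of log2 units. CRYAB is higher on all newborn arrays than on the near-term arrays of the same vessel. Groups without overlap were seen after birth for 22.5% of all probes in the ductus and 11.4% in the aorta. The near-term and newborn arrays of HSP90AA1 and of PDIA4 overlap in both vessels.

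CRYAB showed the largest change after birth of the 5 genes. In the ductus its level was 4.05, 3.96, 3.85 and 3.80 on the preterm arrays and 3.56, 3.63, 3.80 and 4.49 on the near-term arrays. On the newborn ductus arrays it was 5.66, 5.27, 5.43 and 4.68. All 4 newborn arrays lay above all 4 near-term arrays, and the highest near-term array came close to the lowest newborn array. Groups that do not overlap were seen in this comparison for 22.5% of all probes. The rise after birth was 1.39 ± 0.28 (SE, 4 arrays against 4), or 2.62-fold, with an adjusted p of 0.00291 by limma. Relative to the median of all probes it was 1.71.

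In the aorta CRYAB stood at 3.97, 3.89, 3.92 and 3.74 on the preterm arrays and at 3.44, 3.41, 3.66 and 3.79 on the near-term arrays. The newborn aorta arrays gave 5.58, 5.17, 4.49 and 3.94. These spread widely, and the lowest of them was still above the highest near-term array. In the aorta 11.4% of all probes had no overlap between these groups. The rise was 1.22 ± 0.28 (SE, 4 arrays against 4), or 2.33-fold, with an adjusted p of 0.013. It was not called without newborn aorta replicate 2 (adjusted p = 0.0507), with median centring (0.0881) or with only the near-term and newborn aorta in the fit (0.201). The rise in the ductus was 0.17 ± 0.39 larger than that in the aorta, with an adjusted p of 0.914 for the difference and a 95% interval from −0.65 to 0.99.

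Before birth CRYAB differed by −0.04 ± 0.28 in the ductus and by −0.30 ± 0.28 in the aorta, with adjusted p of 0.95 and 0.837. The preterm and near-term arrays overlapped in both vessels. Newborn levels were above preterm levels by 1.34 ± 0.28 in the ductus (adjusted p = 0.0022) and by 0.91 ± 0.28 in the aorta (adjusted p = 0.0447), in comparisons where 15.6% and 9.01% of all probes were called. In the aorta the newborn array at 3.94 lay among the preterm arrays, and the call was kept in 2 of 8 fits that each left out 1 array and in 9 of 14 alternatives. It was lost with a replicate block (adjusted p = 0.0564), a term for the detection limit (0.0533), only arrays with a limit under 1.5 (0.155), only the groups compared (0.243) and median centring (0.272). The change after birth exceeded the change before birth by 1.43 ± 0.48 in the ductus and by 1.52 ± 0.48 in the aorta, and neither was called (adjusted p = 0.181 and 0.169).

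CRYAB also varied with the detection limit of the arrays. The newborn aorta arrays with the lowest CRYAB, replicates 3 and 4, had detection limits of 1.80 and 2.54, and those with the highest had 0.0987 and 0.771. Across the 24 arrays, after removal of group means, CRYAB and the detection limit correlated at r = −0.57. With the limit as a term in the fit the rise was 1.23 in the ductus (adjusted p = 0.00734) and 1.14 in the aorta (adjusted p = 0.0152). On arrays with a limit under 1.5 only, it was 1.20 in the ductus (adjusted p = 0.073) and 1.93 in the aorta (adjusted p = 0.0324), where 1 near-term aorta array remained and was assumed to vary like the other groups.

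CRYAB is also made by heart and skeletal muscle. Of 15 markers of such muscle, myoglobin (MB) and the slow myosin heavy chain MYH7 were measured. Their summed level, in units of the array's 75th percentile, was 0.0984 to 0.401 in the near-term ductus and 0.0434 to 0.0582 in the newborn ductus. MYH7 was above background on 2 of 4 near-term and 0 of 4 newborn ductus arrays, and MB on 4 of 4 in both groups. The detection limit was above 1.5 on 2 of 4 near-term and 0 of 4 newborn ductus arrays, and its part in this sum was not tested. In the aorta the sum ran from 0.178 to 0.286 near term and from 0.0491 to 0.24 in newborns. The sum of the macrophage markers CD14, CD86 and TYROBP, 3 measured of 8, was 0.681 to 0.872 in the near-term ductus and 1.33 to 1.63 in the newborn ductus. In the aorta it was 0.558 to 1.00 near term and 1.08 to 1.54 in newborns. CD14 was the 1 macrophage marker called higher in each vessel, beside 4.16% and 3.01% of all probes, and 2 of the 3 differences were above 0. The mean of TYROBP went from −1.61 to −2.14 in the ductus, and that of CD86 from −3.24 to −3.79 in the aorta. The 6 adipocyte markers measured of 8 summed to between 0.577 and 1.61 in the near-term and between 1.03 and 2.25 in the newborn ductus. In the aorta they summed to between 1.42 and 18.0 near term and between 3.94 and 8.21 in newborns. Of these, FABP4 was called higher after birth in both vessels, by 2.19 ± 0.55 in the ductus (adjusted p = 0.0149) and 2.25 ± 0.55 in the aorta (adjusted p = 0.0192). In each vessel 2 of the 6 adipocyte differences after birth were above 0 and the rest below. Their median was −0.66 in the ductus and −0.30 in the aorta. The mast cell markers TPSB2, KIT and FCER1A, 3 measured of 6, summed to between 13.7 and 19.9 in the near-term and between 2.56 and 5.45 in the newborn ductus. In the aorta the sum was 5.35 to 9.48 near term and 2.02 to 4.12 in newborns. Of the 3 markers, 2 were called lower in the ductus and 1 in the aorta, where 11% and 6.37% of all probes were called in either direction. CNN1 was called higher in the newborn than in the near-term aorta, by 0.83 ± 0.22 (adjusted p = 0.029), and gave −0.12 ± 0.20 in the ductus (adjusted p = 0.705). The part of striated muscle, macrophages, fat, mast cells and smooth muscle in the CRYAB, HSPA5 and XBP1 values was not tested.

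**Figure D2:**
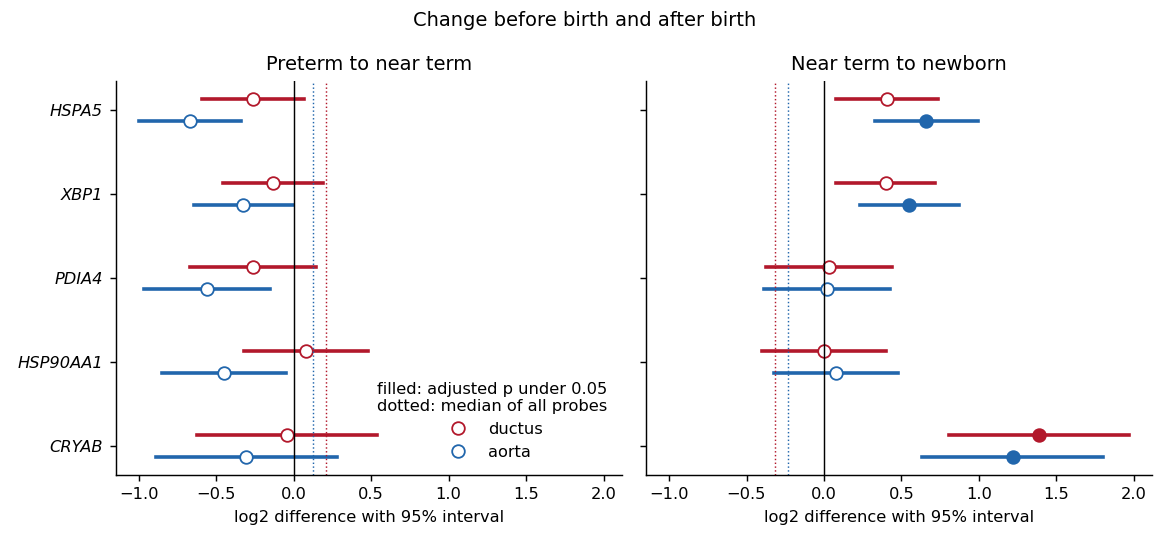
Log2 difference of each gene from preterm to near term (left) and from near term to newborn (right), in the ductus (red) and the aorta (blue). Points are estimates from 4 arrays against 4, lines their 95% intervals, filled points have an adjusted p under 0.05, and dotted lines mark the median of all probes. No point on the left is filled, and 4 on the right are.

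HSPA5 was lowest near term in both vessels. In the aorta its brighter probe gave 3.92, 3.82, 3.71 and 3.91 on the preterm arrays and 3.15, 3.08, 3.02 and 3.42 on the near-term arrays. The newborn aorta arrays gave 4.28, 3.55, 3.86 and 3.62. All 4 near-term arrays lay below all preterm and all newborn arrays of the aorta, and groups that do not overlap were seen there for 8.97% of all probes before birth and 11.4% after birth. The difference before birth was −0.67 ± 0.16 (SE, 4 arrays against 4) and missed the threshold (adjusted p = 0.0636). It was called with only the probes above background on all arrays (0.0359), with a trended and robust spread (0.0306) and with array weights (0.000483).

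After birth HSPA5 rose in the aorta by 0.66 ± 0.16, or 1.58-fold, with an adjusted p of 0.0162. Relative to the median of all probes the rise was 0.89. The call was kept in 5 of 8 fits that each left out 1 array, and lost without near-term aorta replicate 2 or 3 or newborn aorta replicate 1, with an adjusted p of at most 0.0608. It was also lost with median centring (0.149) and with only the near-term and newborn aorta in the fit (0.245). Newborn and preterm aorta differed by −0.01 ± 0.16 (adjusted p = 0.985), with a 95% interval from −0.34 to 0.32. The change after birth minus the change before birth was 1.33 ± 0.27, with an adjusted p of 0.0484, in a comparison where 0.257% of all probes were called. It was called in 2 of 12 fits that each left out 1 array and in 6 of 15 alternatives. Among those without the call were the other HSPA5 probe (0.48, adjusted p = 0.566), median centring (0.397) and only the groups compared (0.271). The call was also lost with quantile normalisation (0.0905) and with no filter on dim probes (0.0542).

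In the ductus the brighter HSPA5 probe gave 3.58, 3.83, 3.78 and 3.67 on the preterm arrays and 3.20, 3.33, 3.58 and 3.71 near term. The newborn ductus arrays gave 4.06, 3.73, 3.88 and 3.78. The near-term arrays overlapped the preterm arrays and lay below the newborn arrays by a small margin. The difference was −0.26 ± 0.16 before birth (adjusted p = 0.54) and 0.41 ± 0.16 after birth (adjusted p = 0.0967), and neither was called. Groups that do not overlap were seen in the ductus for 5.95% of all probes before birth and 22.5% after birth.

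The other HSPA5 probe was not called in the aorta. There it ran from 3.11 to 3.92 preterm, from 3.15 to 3.38 near term and from 3.36 to 3.67 in newborns, and neighbouring stages overlapped. Its differences there were −0.24 ± 0.18 before birth and 0.24 ± 0.18 after birth, with adjusted p of 0.775 and 0.489, so the call in the aorta rests on the brighter probe. In the ductus it gave −0.52 ± 0.20 before birth (adjusted p = 0.328) and 0.45 ± 0.18 after birth (adjusted p = 0.11), with 1 preterm spot left out as an outlier. Both probes had their lowest group mean near term in each vessel. After removal of group means the brighter HSPA5 probe and the detection limit correlated at r = −0.53 over the 24 arrays. On arrays with a limit under 1.5 the rise of the brighter probe in the aorta was 0.77 (adjusted p = 0.186), with 1 near-term array.

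**Figure D3:**
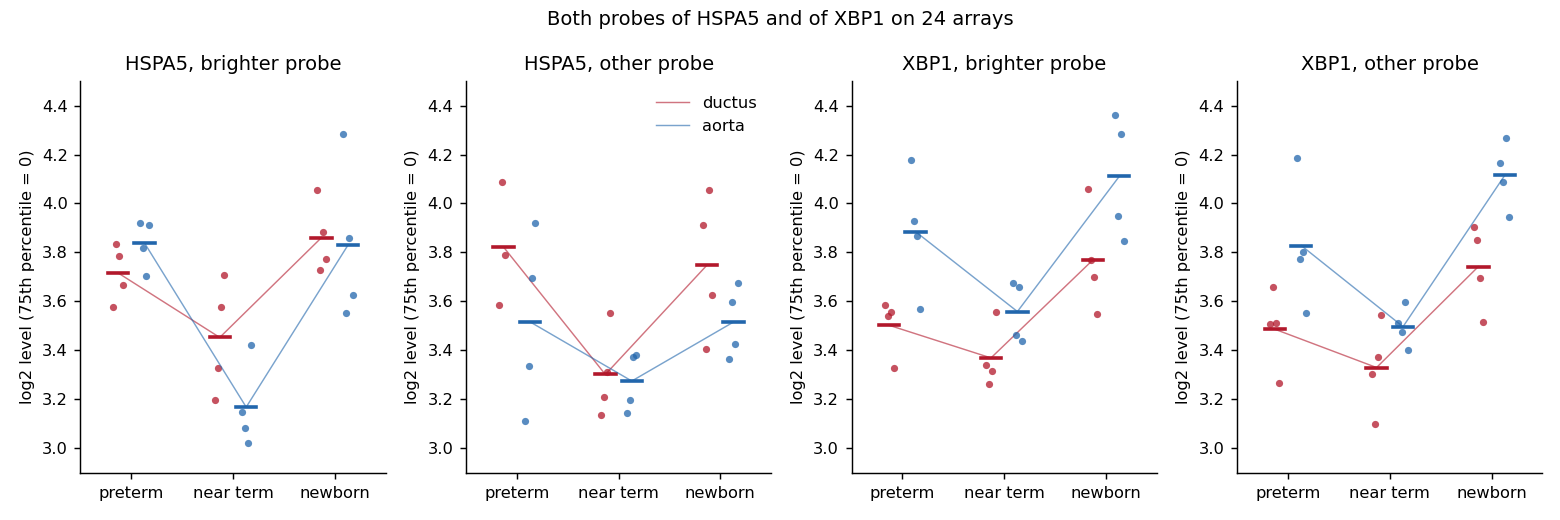
Level (log2, relative to the 75th percentile of the array) of both probes of HSPA5 and both of XBP1 at 3 stages in the ductus (red) and the aorta (blue). Points are arrays and short bars group means. The dip of HSPA5 in the near-term aorta is deep with the brighter probe and shallow with the other, while the XBP1 probes give similar levels.

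XBP1 also had its lowest mean near term in both vessels. In the aorta the brighter probe gave 4.18, 3.93, 3.87 and 3.57 on the preterm arrays and 3.67, 3.46, 3.66 and 3.44 near term. The newborn aorta arrays gave 4.36, 3.95, 4.28 and 3.85. All 4 newborn arrays lay above all near-term arrays, in a comparison where 11.4% of all probes had no overlap. The preterm arrays overlapped both groups. XBP1 rose after birth by 0.55 ± 0.15, or 1.47-fold, with an adjusted p of 0.0359, and by 0.78 relative to the median of all probes. The second probe gave 0.62 ± 0.14 (adjusted p = 0.0145), also without overlap.

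This XBP1 call was kept in 1 of 8 fits that each left out 1 array, the one without newborn aorta replicate 4, with an adjusted p from 0.0165 to 0.12 over the 8. It was not kept with quantile normalisation (0.0918), median centring (0.188) or a term for the detection limit (0.0585). Quantile normalisation brought the median of all probes in this comparison to −0.0047 and gave XBP1 a rise of 0.46, while median centring gave 0.78. In the ductus XBP1 gave 3.59, 3.54, 3.56 and 3.33 preterm and 3.34, 3.26, 3.32 and 3.56 near term. The newborn ductus arrays gave 4.06, 3.77, 3.70 and 3.55. The difference after birth was 0.40 ± 0.15 (adjusted p = 0.0936), with 1 newborn array inside the near-term range. Before birth the ductus differed by −0.13 ± 0.15 (adjusted p = 0.709) and the aorta by −0.33 ± 0.15 (adjusted p = 0.466).

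PDIA4 was not called after birth in either vessel. Its preterm aorta arrays gave −0.52, −0.10, 0.10 and −0.16, its near-term aorta arrays −0.91, −0.69, −0.51 and −0.81, and its newborn aorta arrays −0.60, −1.0, −0.76 and −0.48. The difference was −0.56 ± 0.20 before birth (adjusted p = 0.263) and 0.02 ± 0.20 after birth (adjusted p = 0.96), with a 95% interval after birth from −0.39 to 0.43. Newborn aorta was below preterm aorta by −0.54 ± 0.20, which was not called (adjusted p = 0.0996). In the ductus PDIA4 ran from −0.91 to −0.19 preterm, from −1.26 to −0.47 near term and from −1.06 to −0.50 in newborns, and its differences were −0.26 ± 0.20 and 0.03 ± 0.20 (adjusted p = 0.613 and 0.921).

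HSP90AA1 was not called in either interval. In the ductus it ran from 1.92 to 2.72 preterm, from 2.36 to 2.66 near term and from 2.10 to 2.65 in newborns. The differences were 0.08 ± 0.19 before birth and −0.00 ± 0.19 after birth (adjusted p = 0.857 and 0.998), and their sign changed with the scaling of the arrays. In the aorta it ran from 2.29 to 2.74 preterm, from 1.92 to 2.54 near term and from 1.90 to 2.58 in newborns. The differences there were −0.45 ± 0.19 (adjusted p = 0.398) and 0.08 ± 0.19 (adjusted p = 0.827), with a 95% interval after birth from −0.32 to 0.48.

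Between the vessels 0 of the 5 genes were called at any stage, where 0.7% of all probes were called preterm, 1.15% near term and 10.3% in newborns. XBP1 was lower in the ductus than in the aorta by −0.38 ± 0.15 preterm, −0.19 ± 0.15 near term and −0.34 ± 0.15 in newborns, with adjusted p of 0.335, 0.928 and 0.15. The newborn difference in CRYAB was 0.47 ± 0.28 (adjusted p = 0.247). The change before birth and the change after birth were also compared between vessels, and 0 of 5 genes were called in either test, where 0% and 0.407% of all probes were called. The adjusted p ran from 0.867 to 0.993 for the change after birth. For HSPA5 that difference, ductus minus aorta, was −0.25 ± 0.22 with the brighter probe, with a 95% interval from −0.72 to 0.21. The other probe had the opposite sign, at 0.21 ± 0.26, with an interval from −0.33 to 0.75. For the change before birth the HSPA5 probes also differed in sign, at 0.41 ± 0.22 with the brighter and −0.28 ± 0.27 with the other. The XBP1 interval for the change after birth was −0.60 to 0.30. In the ductus 0.707% of all probes were called for the change after birth minus the change before birth, and 0 of the 5 genes.

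By the brighter HSPA5 probe the order from the highest mean was newborn ductus, preterm aorta, newborn aorta, preterm ductus, near-term ductus and near-term aorta. Neighbours in this order overlapped. With the other HSPA5 probe the preterm ductus ranked first, at 3.82 ± 0.25 (SD, n = 3), and the near-term aorta last, at 3.28 ± 0.12 (n = 4). For XBP1 the order was newborn aorta, preterm aorta, newborn ductus, near-term aorta, preterm ductus and near-term ductus, again with overlapping neighbours. For CRYAB it was newborn ductus at 5.26 ± 0.42 (SD, n = 4), newborn aorta at 4.79 ± 0.72, preterm ductus at 3.92 ± 0.11, preterm aorta at 3.88 ± 0.10, near-term ductus at 3.87 ± 0.43 and near-term aorta at 3.58 ± 0.18. For PDIA4 the preterm aorta ranked first, at −0.17 ± 0.26, and for HSP90AA1 also, at 2.60 ± 0.21.

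The wider folding machinery was thinly covered by named probes. Of the listed ER chaperones and folding enzymes HSPA5, PDIA4 and PPIB (cyclophilin B, an ER prolyl isomerase) were measured, and HSPA5 in the newborn aorta was the 1 call among them over both intervals and vessels. The median difference of these 3 genes was −0.26 and −0.56 before birth and 0.07 and 0.02 after birth in ductus and aorta, beside the medians of all probes given above. PPIB gave −0.49 ± 0.18 in the ductus before birth (adjusted p = 0.312), without overlap, as for 5.95% of all probes. After birth it gave 0.07 ± 0.18 there (adjusted p = 0.789). In the aorta PPIB gave −0.21 ± 0.19 and −0.30 ± 0.22 (adjusted p = 0.838 and 0.464), with 1 preterm and 2 newborn spots left out.

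Among sensors, transcription factors and targets of the unfolded protein response, XBP1, ATF6, DDIT3, CEBPB and DERL1 were measured. After birth 1 of 5 was called higher in each vessel, CEBPB in the ductus and XBP1 in the aorta, where 4.16% and 3.01% of all probes were called higher. All 5 differences were above 0 after birth in both vessels, beside 30.8% and 34.4% of all probes. Before birth 4 of 5 in the ductus and 3 of 5 in the aorta were above 0 as well, beside 67.2% and 61.3% of all probes. CEBPB encodes a transcription factor induced both in ER stress and in inflammation. Its level was −2.03, −2.81, −1.71 and −1.99 on the near-term ductus arrays and −0.05, −0.63, −0.17 and −0.08 on the newborn ductus arrays. The groups did not overlap, as for 22.5% of all probes, and the rise was 1.90 ± 0.32, or 3.74-fold (adjusted p = 0.000735). In the aorta CEBPB differed by 0.79 ± 0.32 after birth (adjusted p = 0.167), and the difference between the vessels was 1.12 ± 0.45 (adjusted p = 0.505).

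DDIT3 (CHOP), the factor tied to cell death under prolonged ER stress, gave 0.67 ± 0.28 in the ductus and 0.65 ± 0.28 in the aorta after birth, with adjusted p of 0.113 and 0.189. Its other probe gave 0.43 ± 0.37 and 0.89 ± 0.37 (adjusted p = 0.406 and 0.17). ATF6, the membrane-bound sensor and factor, was dim and above background on 2 of 4 near-term ductus arrays, with differences of 0.59 ± 0.48 and 0.16 ± 0.48 after birth (adjusted p = 0.374 and 0.865). DERL1, which helps to move misfolded protein out of the ER, gave 0.47 ± 0.36 and 1.01 ± 0.36 (adjusted p = 0.356 and 0.108), and its other probe gave 0.19 ± 0.26 in the aorta. Before birth the lowest adjusted p in this group was 0.197, for CEBPB in the aorta at 1.04 ± 0.32.

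In the cytosol HSP90AA1, TCP1 (a chaperonin subunit) and an HSP70 probe were measured, and 0 of 3 were called in any interval or vessel. The HSP70 probe, HSP70.1 on the array and named HSPA1A here, cannot be told from its near-identical copy HSPA1B. It ran widely within groups, from 0.22 to 2.32 on the preterm ductus arrays and from 0.01 to 1.97 on the newborn aorta arrays. Its differences after birth were 0.19 ± 0.47 and 0.24 ± 0.47 (adjusted p = 0.791 and 0.785). TCP1 gave −0.15 ± 0.19 in the ductus (adjusted p = 0.585) and −0.06 ± 0.19 in the aorta (adjusted p = 0.862).

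The other small heat shock protein measured, CRYAA (αA-crystallin), was not called higher. Its brighter probe gave −0.81 ± 0.30 in the ductus (adjusted p = 0.0824) and −0.58 ± 0.30 in the aorta (adjusted p = 0.295) after birth. Its other probe fell in the ductus by 0.87 on the log2 scale (SE 0.25, adjusted p = 0.0267), with overlapping arrays, and was not called in the aorta (−0.30 ± 0.25, adjusted p = 0.519). On near-term ductus replicates 1 to 4 this probe gave −3.20, −4.53, −3.43 and −3.80, where the detection limit was 2.55, 1.02, 2.44 and 0.444. The part of the limit in this call was not tested. CRYAA is a lens protein, and both probes were well above background on all 24 arrays.

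**Figure D4:**
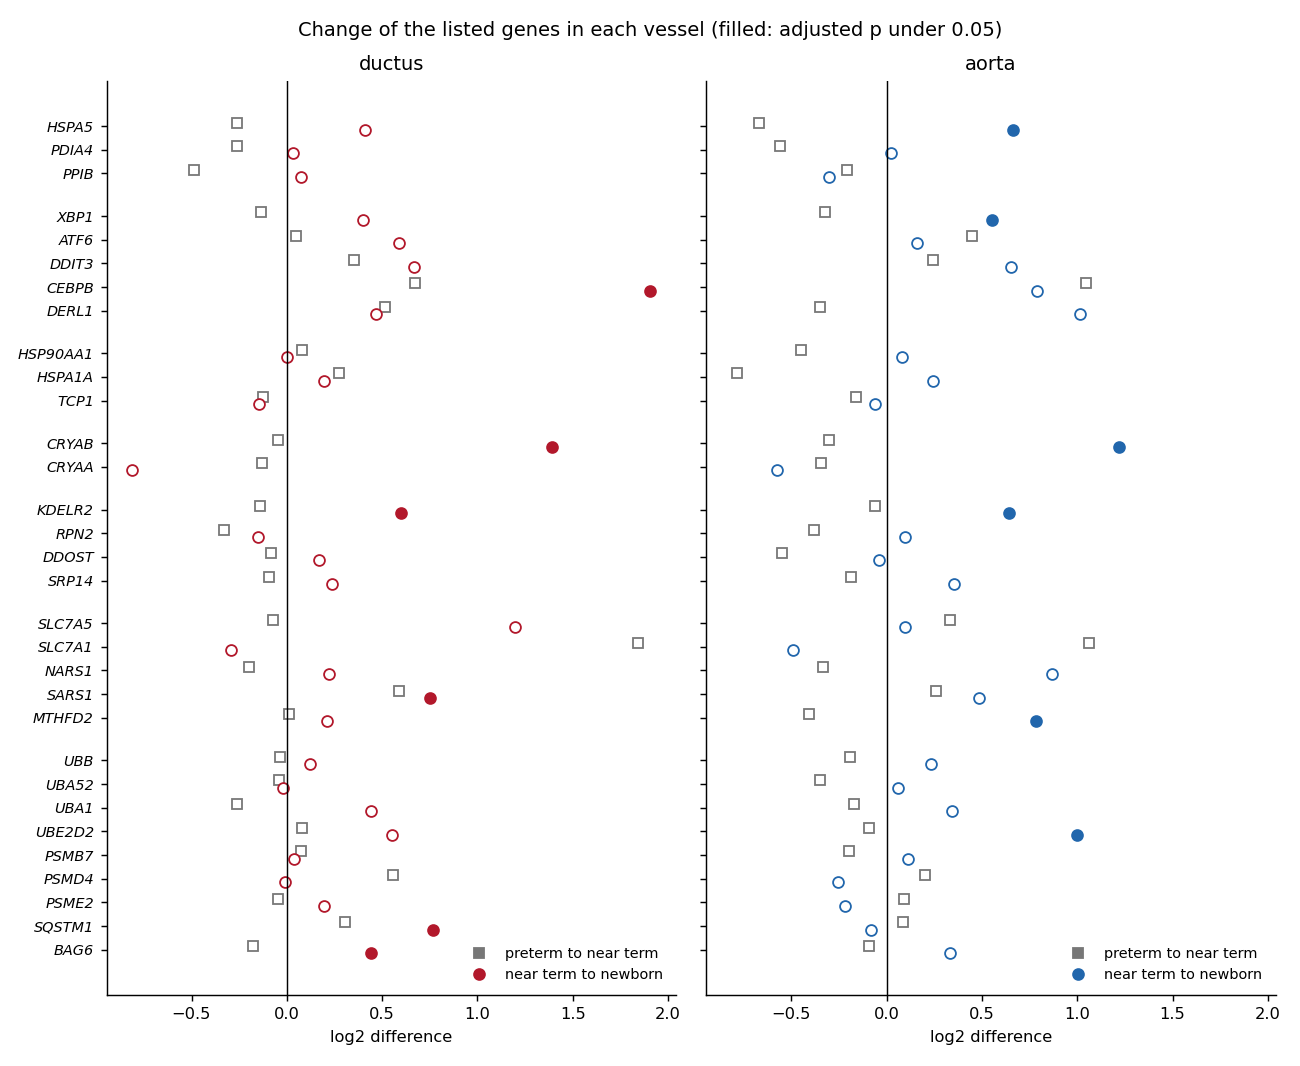
Log2 difference of the listed genes in the ductus (left) and the aorta (right), from preterm to near term (grey squares) and from near term to newborn (coloured circles). From top to bottom the blocks hold ER chaperones, the unfolded protein response, cytosolic chaperones, small heat shock proteins, ER translocation and retrieval, ATF4 targets, and ubiquitin and proteasome, each gene by its brighter probe. Filled symbols have an adjusted p under 0.05, and no square is filled. SLC7A5 and SLC7A1 were well above background on 5 of 24 arrays and ATF6 on 20.

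Of 4 genes of ER translocation, glycosylation and retrieval, KDELR2 was the 1 called higher after birth in each vessel, beside 4.16% and 3.01% of all probes. KDELR2 is a receptor that returns escaped ER chaperones such as HSPA5 from the Golgi. On the ductus arrays it gave 2.95, 3.02, 2.72 and 2.75 near term and 2.93, 3.74, 3.55 and 3.61 in newborns, with 1 newborn array inside the near-term range. It rose by 0.60 ± 0.19 in the ductus (adjusted p = 0.0477) and by 0.64 ± 0.19 in the aorta (adjusted p = 0.0496). The aorta arrays ran from 2.64 to 3.50 near term and from 3.59 to 3.94 in newborns, without overlap, as for 11.4% of all probes. Both KDELR2 calls lay just under the threshold, and they were not followed through the alternatives. With only the near-term and newborn aorta in the fit, 0 probes were called, so the aorta call of KDELR2 was lost there. RPN2 and DDOST, of the oligosaccharyltransferase, and SRP14, of the signal recognition particle, were not called, and their brighter probes differed by −0.15 to 0.35 after birth.

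ATF4 is the factor that the PERK arm of the unfolded protein response and amino acid shortage both induce. Of 5 genes it is known to activate, SARS1 was called higher in the newborn ductus and MTHFD2 in the newborn aorta, which is 1 of 5 in each vessel beside the same shares of all probes. SARS1, the seryl-tRNA synthetase, gave 1.59, 1.49, 1.40 and 1.68 on the near-term ductus arrays and 2.14, 2.52, 2.39 and 2.11 on the newborn ductus arrays, a rise of 0.75 ± 0.17 (adjusted p = 0.00714). In the aorta SARS1 gave 0.48 ± 0.17 (adjusted p = 0.0998). MTHFD2, a mitochondrial folate enzyme, rose in the aorta by 0.79 ± 0.19 (adjusted p = 0.0154), and its other probe gave 0.05 ± 0.25 (adjusted p = 0.923). NARS1, the asparaginyl-tRNA synthetase, gave 0.87 ± 0.41 in the aorta with its brighter probe (adjusted p = 0.247) and 1.12 ± 0.21 with the other (adjusted p = 0.00405). The amino acid transporters SLC7A5 and SLC7A1 were each well above background on 5 of 24 arrays, and neither was called before or after birth in either vessel. No difference is given for them, since most of their values are not well above background.

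Of 9 genes of ubiquitin and the proteasome, 2 were called higher after birth in the ductus and 1 in the aorta, where 4.16% and 3.01% of all probes were, and these counts are too small to describe the group. SQSTM1, which carries ubiquitinated cargo to autophagy, rose in the ductus by 0.77 ± 0.23 (adjusted p = 0.037) and gave −0.08 ± 0.23 in the aorta (adjusted p = 0.857), and the difference between the vessels was not called (0.85 ± 0.33, adjusted p = 0.464). BAG6, which guards stranded membrane proteins, rose in the ductus by 0.44 ± 0.13 (adjusted p = 0.033). UBE2D2, a ubiquitin-conjugating enzyme, rose in the aorta by 1.00 ± 0.21 (adjusted p = 0.00722) and gave 0.55 ± 0.21 in the ductus (adjusted p = 0.0885), where its other probe was called (0.55 ± 0.15, adjusted p = 0.0189). The proteasome genes PSMB7, PSMD4 and PSME2 were not called in either interval or vessel by either probe, and their brighter probes differed by −0.25 to 0.20 after birth. Before birth no gene of these lists was called in either vessel.

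Among 691 other named genes, those whose level ran most like each member over the 24 arrays were found by Pearson's r. The arrays share their slides by stage, and no p is given. For CRYAB they were CD14 (a monocyte and macrophage receptor, r = 0.89), IFNAR1 (an interferon receptor chain, 0.86), CXCL8 (a neutrophil chemokine, 0.85) and PDXK (pyridoxal kinase, 0.84). With group means removed these became 0.62, 0.66, 0.33 and 0.32. CD14 itself rose after birth by 1.5 ± 0.21 in the ductus (adjusted p = 0.000113) and by 1.07 ± 0.21 in the aorta (adjusted p = 0.00509).

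For HSPA5 the nearest genes were SRSF3 (a splicing factor, r = 0.71), CIB1 (0.70), IFNAR1 (0.67) and CRYAB (0.65). With group means removed these became 0.46, 0.48, 0.32 and 0.60. For XBP1 they were SRSF3 (0.87), ATP6V0C (a subunit of the vacuolar proton pump, 0.75), SRP14 (0.71) and BCAT1 (0.67). These became 0.70, 0.55, 0.22 and 0.23 with group means removed. PDIA4 ran most like FZD3 (0.66), DDOST (0.59), QPCT (0.58) and TM7SF2 (0.57), which became 0.40, 0.31, 0.63 and 0.39. HSP90AA1 ran most like HSPA1A (0.66), and less so like FTH1, IGF2 and CAST, at 0.50 to 0.55. With group means removed, r was 0.57 for HSPA1A, 0.27 for FTH1, 0.39 for IGF2 and 0.49 for CAST. Between members, r was 0.59 for HSPA5 with XBP1, 0.65 for HSPA5 with CRYAB, 0.57 for XBP1 with CRYAB, and −0.23 for PDIA4 with CRYAB. With group means removed these became 0.47, 0.60, 0.58 and −0.07. The detection limit then correlated with HSPA5 at −0.53, XBP1 at −0.44, CRYAB at −0.57, HSP90AA1 at −0.30 and PDIA4 at 0.19. Its part in the correlations between members was not tested.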

How the data were processed

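Per the file headers, the deposited intensity of each spot is the linear, background-subtracted processed signal that Agilent Feature Extraction wrote, in version 9.5.3.1 with the protocol GE1-v5_95_Feb07, for 1-colour arrays of design 019921. No further normalisation is given in the sources used here. Groups came from the labels. Control spots and spots flagged as non-uniform or outlying (2 to 124 per array) were left out, log2 signal was set relative to each array's 75th percentile (321 to 1141), with a mean over the spots of each probe. Tests used the 13997 of 15008 probes that 4 or more of the 24 arrays measured well above background. limma 3.58.1 in R 4.3.3 fitted 6 group means in 1 model, two-sided. Its code was tested on simulated data. Precision is limited by the number of arrays, and p-values measure the spread between the animals of a group on 1 slide each.

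Symbols came from the array's names and RefSeq names of ARS-UI_Ramb_v3.0, for 1289 probes, 520 of them by RefSeq accession, 135 by gene ID and 141 by a table made by hand. Among 276 pairs of arrays 0 were identical. The genes, lists and tests were chosen with earlier results of these data known, and 3 lists were added after the array's names were read. Named were every probe of a member, from each list the called genes or else those with the lowest p, and for each member the 4 genes with the highest r. The alternatives covered background correction, scaling, filters, flagged spots, the arrays in the fit, replicate number, detection limit, array weights and spread.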

Additional observations from a re-analysis of the deposited data

Results flagged for a closer look

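Dixon's ratio was computed for every probe of the 5 genes in each group with 4 values, 41 in all, and in 0 of them did it pass the critical value. For none of the 5 genes was the change before birth or the change after birth called different between the vessels.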

How the results depend on the processing

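The rise of CRYAB in the ductus after birth kept its call in 13 of 14 alternatives and in 8 of 8 fits without 1 array. Its rise in the aorta kept it in 12 of 14, that of HSPA5 in the aorta in 11 of 15 and that of XBP1 in the aorta in 9 of 15. Calls of other genes, among them CEBPB, KDELR2, SARS1, MTHFD2, NARS1, SQSTM1, BAG6, UBE2D2 and the markers, were not followed through these refits. With only the groups compared, 0 probes were called in the aorta after birth. None of the aorta calls of these genes after birth was kept there. In the lists of counts below, values are probes called, and all p are adjusted by limma.

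With the percentile taken over probes detected on all arrays, PDIA4 reversed after birth (−0.032 in the ductus, −0.043 in the aorta), XBP1 lost its call in the aorta (0.49, adjusted p = 0.0576), and so did the aorta change after birth minus before birth for HSPA5 (1.23, adjusted p = 0.0612), with 19 probes called. The share of calls that were higher was then 37.3% in the aorta after birth, beside 47.3%. It went from 50% to 25% in the ductus before birth, from 71.4% to 87.7%, from 58.4% to 77.1% and from 46.9% to 65.9% between vessels at the 3 stages and from 86.0% to 97.0% for the vessel difference of the birth changes with median centring, and to 57.2% between vessels in newborns with quantile normalisation. For the ductus difference of changes it was 59.6%, and 86.8%, 72.7% and 10.1% with median centring, quantile normalisation and normexp, and for the aorta difference 66.7%, and 56.5% and 36.8% with quantile normalisation and the detected percentile. With median centring the counts were 12 and 14 before birth in ductus and aorta, 1012 and 178 after birth, 1330 and 514 for newborn against preterm, 57, 48 and 834 between vessels at the 3 stages, 33 for the difference of the birth changes, and 53 and 0 for the change after birth minus before birth. HSP90AA1 in the ductus reversed (−0.18 before birth, 0.31 after birth, 0.49 for their difference), HSPA5 in newborn against preterm aorta reversed (0.042), and in the aorta after birth HSPA5 (0.89, adjusted p = 0.149), XBP1 (0.78, adjusted p = 0.188) and CRYAB (1.45, adjusted p = 0.0881) lost their calls, as did the HSPA5 difference of changes (1.74, adjusted p = 0.397). With quantile normalisation CRYAB reversed in the ductus before birth (0.049) and HSP90AA1 in the aorta after birth (−0.045), and XBP1 in the aorta (0.46, adjusted p = 0.0918) and the HSPA5 difference of changes (1.14, adjusted p = 0.0905, 23 probes called) lost their calls.

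With normexp the counts were 27 and 5047 before and after birth in the ductus, 1253 and 703 for newborn against preterm, 53, 53 and 865 between vessels and 2154 for the ductus difference of changes. HSP90AA1 in the ductus (−0.094, 0.15 and 0.24 for their difference), PDIA4 in the ductus after birth (−0.030) and HSPA5 in newborn against preterm aorta (0.093) reversed. XBP1 in the ductus after birth (0.56, adjusted p = 0.0226) and the CRYAB differences of changes (1.72, adjusted p = 0.0448 and 1.87, adjusted p = 0.0475) gained calls. With outlier spots kept, HSP90AA1 in the ductus after birth reversed (0.0099). With no filter on dim probes the HSPA5 difference of changes lost its call (1.33, adjusted p = 0.0542, 15 probes called). With probes above background on all arrays, 101 and 122 probes were called before birth and 205 and 145 for the differences of changes, and HSPA5 in the aorta before birth was called (−0.67, adjusted p = 0.0359). With a trended and robust spread it was called too (−0.67, adjusted p = 0.0306), with 81 and 106 probes before birth and 89 for the aorta difference of changes.

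With only the groups compared in the fit, the counts were 0 and 11 before birth, 901 and 0 after birth, 310 for newborn against preterm aorta, 32, 36 and 378 between vessels, and 28 and 0 for the differences of changes. In the aorta after birth HSPA5 (0.66, adjusted p = 0.245), XBP1 (0.55, adjusted p = 0.256) and CRYAB (1.22, adjusted p = 0.201) lost their calls, as did the HSPA5 difference of changes (1.33, adjusted p = 0.271). With the other probe, HSPA5 in the aorta after birth (0.24, adjusted p = 0.489) and its difference of changes (0.48, adjusted p = 0.566) were not called, and newborn against preterm ductus reversed (−0.073). With a term for the detection limit, 146 probes were called in the ductus before birth and 188 and 15 for the differences of changes, and XBP1 in the aorta (0.51, adjusted p = 0.0585) and the HSPA5 difference of changes (1.30, adjusted p = 0.0548) lost their calls. On arrays with a limit under 1.5 the counts were 0 and 251, 615 and 1455, 1222 and 362, 400, 939 and 868 between vessels, 10 and 141 for the vessel differences of the changes, and 0 and 780 for the differences of changes, the groups with 1 array being assumed to vary like the others. There HSP90AA1 reversed throughout (−0.24 and 0.25 before birth, 0.11 and −0.13 after birth, −0.13 and 0.12 for newborn against preterm, 0.34 and −0.38 for the differences of changes), CRYAB in the ductus before birth (0.16) and XBP1 in newborn against preterm aorta (−0.021) reversed, and CRYAB in the ductus (1.20, adjusted p = 0.073), HSPA5 (0.77, adjusted p = 0.186) and XBP1 in the aorta (0.48, adjusted p = 0.352) and the HSPA5 difference of changes (1.54, adjusted p = 0.211) were not called.

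With array weights the counts were 4901 and 1254 before birth, 7693 and 2630 after birth, 2263 for newborn against preterm aorta, 1999, 802 and 2952 between vessels, 273 for the difference of the birth changes, and 6555 and 1926 for the differences of changes. HSPA5 (−0.69, adjusted p = 0.000483), PDIA4 (−0.62, adjusted p = 0.00644) and HSP90AA1 (−0.68, adjusted p = 0.00248) in the aorta before birth and HSPA5 (0.37, adjusted p = 0.0164) and XBP1 (0.40, adjusted p = 0.0102) in the ductus after birth were called, as was 1 member between vessels near term and 1 in newborns. The differences of changes were called for HSPA5 (0.63, adjusted p = 0.0287), XBP1 (0.60, adjusted p = 0.0401) and CRYAB (1.56, adjusted p = 0.00231) in the ductus and XBP1 (1.00, adjusted p = 0.00558), HSP90AA1 (0.95, adjusted p = 0.0173) and CRYAB (1.63, adjusted p = 0.00562) in the aorta. PDIA4 reversed after birth (−0.23 and −0.064) and in the ductus difference of changes (−0.094), as did HSP90AA1 in newborn against preterm ductus (−0.036) and HSPA5 in newborn against preterm aorta (0.050). The causes were not tested.

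The replicate numbers were not taken to pair ductus and aorta, since the labels do not say that they do. The correlation of same-numbered arrays after group means ran from −0.586 to 0.821 over 12 pairs. Preterm ductus array 4, near-term 3 and newborn 1, 2 and 3 ran most like the aorta array of their own number, and the others did not. Such correlations also carry differences in quality between arrays, so they do not settle whether a number marks 1 animal. With a replicate block the HSPA5 difference of changes lost its call (1.33, adjusted p = 0.0652, 15 probes called), and so did CRYAB in newborn against preterm aorta (0.91, adjusted p = 0.0564), which median centring (0.97, adjusted p = 0.272), only the groups compared (0.91, adjusted p = 0.243), a term for the detection limit (0.83, adjusted p = 0.0533) and arrays with a limit under 1.5 (1.40, adjusted p = 0.155) ended too. With the number as a random block, at a consensus correlation of 0.179, 207, 274 and 2303 probes were called between vessels and 128 for the difference of the birth changes.

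Over fits without 1 array the counts ran from 11 to 71 and 19 to 52 before birth in ductus and aorta, from 928 to 2274 and 458 to 1542 after birth, from 53 to 85, 73 to 153 and 876 to 1649 between vessels, and from 28 to 98 and 0 to 187 for the differences of changes. After birth in the aorta HSPA5 ran from 0.51 to 0.75, XBP1 from 0.47 to 0.64, CRYAB from 0.96 to 1.5, PDIA4 from −0.056 to 0.12 and HSP90AA1 from −0.036 to 0.21. In the ductus after birth PDIA4 ran from −0.11 to 0.16 and HSP90AA1 from −0.059 to 0.12. Before birth in the ductus HSP90AA1 ran from −0.080 to 0.19 and CRYAB from −0.25 to 0.060. For newborn against preterm HSPA5 in the aorta ran from −0.16 to 0.083 and HSP90AA1 in the ductus from −0.081 to 0.20. The differences of changes ran from 1.18 to 1.5 for HSPA5 and 1.26 to 1.81 for CRYAB in the aorta and from −0.19 to 0.079 for HSP90AA1 in the ductus.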
